A study of Mus musculus with 16 samples.

Results

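The nuclear isoleucine tRNAs with an AAT or a TAT anticodon were followed across all 16 mouse libraries of a study that used base editing to correct a disease mutation of mitochondrial tRNA-Ala. Members were taken by name: every nuclear row called tRNA-Ile-AAT or tRNA-Ile-TAT followed by a running number, which gave 8 rows in each table (5 AAT and 3 TAT), of 821 rows in the heart table and 819 in the fibroblast table. Rows with the same anticodon and a different number are isodecoders, tRNAs that share an anticodon and differ elsewhere in the molecule. The heart set held 4 mice given AAV9-DdCBE (mouse 26 labelled 2X, mouse 25 labelled 5X, mice 17 and 18 labelled 10X) and 4 given AAV9-GFP (mice 14 and 19 labelled 3X, mice 5 and 6 labelled 5X), all from the m.5024T mouse model. The fibroblast set held 2 libraries each of the mouse embryonic fibroblast (MEF) lines Cl_1, Cl_2 and Cl_3 and of the line Ctrl_1, and the 2 libraries of a line were 2 cell passages. AAV9 is a viral vector that reaches the heart, DdCBE is a base editor that acts on cytosine in mitochondrial DNA, and GFP is a fluorescent protein used as a control cargo. The labels used here do not say what Cl, Ctrl or the X labels stand for and give no ages.

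As background, AAT tRNAs are the main isoleucine acceptors of the mammalian cytosol. The first base of their anticodon, an adenosine, is deaminated to inosine by the ADAT2/ADAT3 enzyme, and the edited tRNA reads AUU, AUC and AUA codons. TAT tRNAs read the AUA codon, and their precursors carry an intron that the tRNA splicing endonuclease removes. The mitochondrial tRNA-Ile is a separate molecule, encoded in mitochondrial DNA and used by the mitochondrial ribosome.

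Depth was 1540287 to 3037178 counts per heart library and 1473330 to 4375975 per MEF library. Mitochondrial tRNAs took 37.4% to 59.9% of a heart library and 2.14% to 3.74% of a MEF library. The highest heart values were those of the 10X mice 17 (59.9%) and 18 (44.5%), and the next was that of the AAV9-GFP mouse 19 (43.3%). Levels below are either shares of nuclear tRNA counts, which the mitochondrial tRNAs do not touch, or CPM, which are counts scaled by TMM to a common library size. Neither is corrected for length, since isodecoders are of nearly equal length. A change is called where the adjusted p of edgeR's quasi-likelihood test, taken over all rows tested in that table, is under 0.05.

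The family as a whole took nearly the same part of the nuclear tRNA pool in both tissues. AAT and TAT together made up 6.49% ± 0.276 of nuclear tRNA counts in the hearts and 6.47% ± 0.273 in the MEFs (SD, n = 8 each). AAT held the greater part of this: TAT took 23.0% ± 2.54 of the isoleucine counts in the hearts and 26.8% ± 1.63 in the MEFs (SD, n = 8 each). By counts, the AAT total ranked 2nd among nuclear anticodons in all 8 hearts and 1st to 3rd in the MEF libraries, and the TAT total ranked 27th to 32nd in the hearts and 23rd to 31st in the MEFs. Heart and fibroblast libraries came in separate tables, so tissue and table cannot be told apart, and the tissue values are set side by side with no test. The tables hold tRNAs alone, so the labelled tissue and cell type could not be checked against marker genes, and fewer cells of a type cannot be told apart from less tRNA per cell.

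Within each anticodon the counts lay mostly on 1 or 2 isodecoders. AAT-1 alone made up 92.5% ± 1.20 of AAT counts in the hearts and 99.2% ± 0.107 in the MEFs (SD, n = 8 each). TAT-2 led TAT with 62.9% ± 2.55 in the hearts and 67.0% ± 3.66 in the MEFs, and TAT-1 held nearly all of the rest. In the hearts the order by share of nuclear tRNA counts was AAT-1 (4.63% ± 0.382), TAT-2 (0.936% ± 0.100), TAT-1 (0.551% ± 0.0412), AAT-2 (0.353% ± 0.0222) and AAT-3 (0.0200% ± 0.0256; SD, n = 8), and the ranges of neighbours in this order did not overlap. The MEFs had the same order, with AAT-1 at 4.69% ± 0.267, TAT-2 at 1.16% ± 0.0528, TAT-1 at 0.573% ± 0.0861, AAT-2 at 0.0268% ± 0.00303 and AAT-3 at 0.0128% ± 0.00359 (SD, n = 8), again with no overlap between neighbours. AAT-4 and AAT-5 had 0 counts in all 16 libraries, which allows a level of up to 1.04 to 1.93 CPM in single hearts and 0.712 to 1.97 CPM in single MEF libraries (a limit of 3 counts, for counting error only). TAT-3 had 1 count in the heart of mouse 17, 0 in the other 7 hearts, and in the MEFs 3 and 1 counts in Cl_1, 3 and 2 in Cl_2, 4 and 6 in Cl_3 and 4 and 3 in Ctrl_1. These 3 rows did not pass the filter on low counts, so 5 of the 8 members were tested in each table: AAT-1, AAT-2, AAT-3, TAT-1 and TAT-2.

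**Figure D1:**
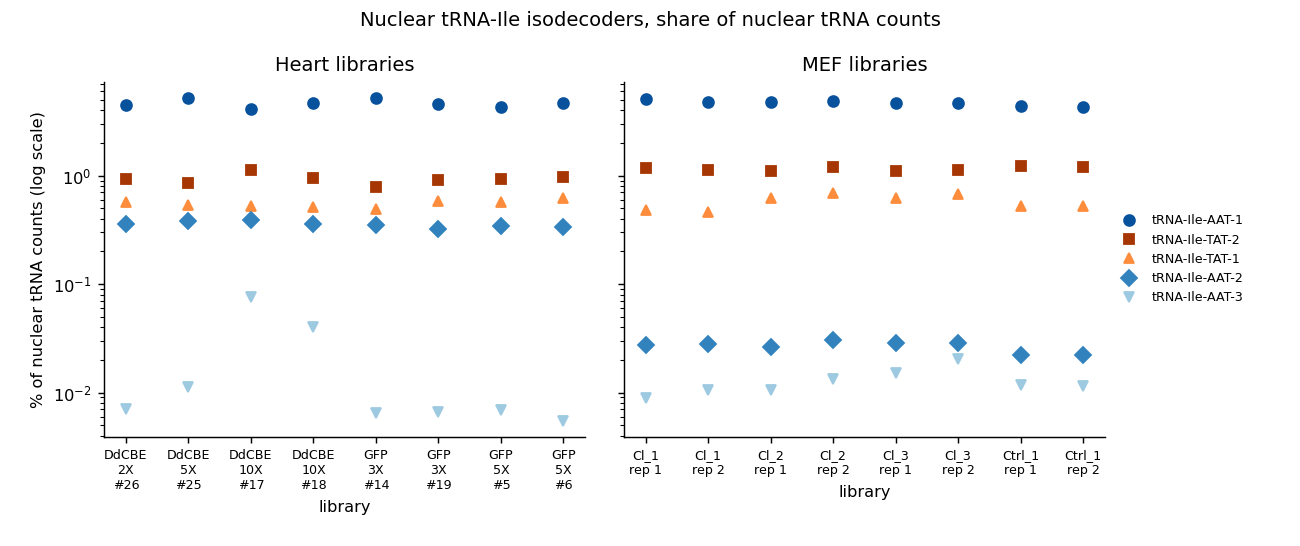
Share of nuclear tRNA counts (percent, log scale) of the 5 tested isodecoders in each heart and each MEF library; blue symbols are AAT and orange or red symbols are TAT. AAT-1, TAT-2 and TAT-1 lie at like levels in both tissues, AAT-2 lies near 0.353% in the hearts against 0.0268% in the MEFs, and AAT-3 stands higher in the 10X hearts of mice 17 and 18 than in the other 6 hearts.

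AAT-2 was the member that set the tissues furthest apart. It made up 7.35%, 6.82%, 8.55% and 7.11% of AAT counts in the AAV9-DdCBE hearts (mice 26, 25, 17 and 18) and 6.28%, 6.55%, 7.30% and 6.74% in the AAV9-GFP hearts (mice 14, 19, 5 and 6). In the MEFs it made up 0.536% and 0.575% in Cl_1, 0.553% and 0.623% in Cl_2, 0.601% and 0.609% in Cl_3, and 0.508% and 0.515% in Ctrl_1. Every heart lay above every MEF library, and the mean share was 7.09% ± 0.695 in the hearts against 0.565% ± 0.0438 in the MEFs (SD, n = 8 each), 12.5-fold higher in the hearts. Shares were compared for 149 nuclear isodecoders with a mean of at least 10 counts in both tables. Rows not named alike in both tables were left out, as were rows with all but a trace of their anticodon's counts in both. Of the 149, 6.04% had shares of their anticodon at least 5-fold apart (8 higher in hearts, 1 lower). AAT-2 ranked 2nd of the 149 in its ratio of heart over MEF share, after tRNA-Leu-CAA-1 (14.3-fold). AAT-3 had a heart over MEF ratio of 1.54, with 6 of the 8 hearts at or below 0.201% of AAT counts and the 10X hearts at 1.68% and 0.795%. As shares of nuclear tRNA counts, AAT-1, TAT-1 and TAT-2 overlapped between hearts and MEFs.

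In the MEFs, 1 of the 5 tested members passed the threshold for the mean of the 3 Cl lines against Ctrl_1, against 48.3% of all 201 transcripts tested. TAT-2, the major TAT isodecoder, was at 11890 and 10758 CPM in Cl_1, 10597 and 11421 in Cl_2, and 10411 and 10440 in Cl_3, against 12554 and 12165 CPM in Ctrl_1. All 6 Cl libraries lay below both Ctrl_1 libraries. The mean log2 change was -0.18 (SE 0.06, adjusted p = 0.0318 by edgeR), that is, 0.883 of the Ctrl_1 level. Scaled on library totals it was -0.08 (adjusted p = 0.272 by edgeR), with each line's libraries summed -0.17 (adjusted p = 0.560 by edgeR), with no filter on low counts -0.17 (adjusted p = 0.0613 by edgeR), and leaving out either Ctrl_1 library ended the call (adjusted p = 0.157 and 0.118 by edgeR). Leaving out replicate 2 of Cl_1, replicate 1 of Cl_2 or either Cl_3 library also did (adjusted p = 0.0508 to 0.114 by edgeR).

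The other members did not pass in this comparison. AAT-1, the bulk of the family, had 51492 and 46125 CPM in Cl_1, 45806 and 46010 in Cl_2 and 44406 and 43153 in Cl_3, against 44839 and 43165 CPM in Ctrl_1. Its mean log2 change was 0.07 (SE 0.05, adjusted p = 0.333 by edgeR). AAT-2 was at 278 and 267 CPM in Cl_1, 255 and 289 in Cl_2 and 269 and 265 in Cl_3, against 229 and 224 CPM in Ctrl_1. Its Cl values all lay above both Ctrl_1 values, and the log2 change of 0.26 missed the threshold (SE 0.11, adjusted p = 0.0958 by edgeR). As a share of AAT counts, AAT-2 was at 0.583% ± 0.0339 in the 6 libraries of the 3 Cl lines and 0.511% ± 0.00523 in the 2 of Ctrl_1 (SD; two-sided exact permutation p = 0.0357, with no smaller value possible over 28 splits; p = 0.183 after Benjamini-Hochberg adjustment over 16 tests of shares; 0.25 with the lines as units). TAT-1 (0.06, SE 0.06, adjusted p = 0.456 by edgeR) and AAT-3 (0.03, SE 0.16, adjusted p = 0.884 by edgeR) had mean changes near 0 that covered unlike values in the 3 lines. The replicates are passages of a line and there is 1 control line, so these p-values measure the spread between passages, and a trait of the Ctrl_1 line cannot be told apart from one shared by the Cl lines.

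TAT-1 had the smallest p of the 5 members in the test among the Cl lines. It made up 28.8% and 29.2% of TAT counts in Cl_1, 36.1% and 36.1% in Cl_2 and 36.0% and 37.2% in Cl_3, against 30.3% and 30.1% in Ctrl_1. Cl_2 and Cl_3 lay above Ctrl_1 and Cl_1 lay below it, and passages of a line were 1.26 points apart or less. The level of TAT-1 was 4802 and 4445 CPM in Cl_1, 5974 and 6448 in Cl_2 and 5851 and 6196 in Cl_3, against 5447 and 5239 CPM in Ctrl_1. The Cl lines differed among themselves (edgeR F test, adjusted p = 0.0107, a call made for 24.4% of the 201 transcripts). Against Ctrl_1, TAT-1 rose in Cl_2 (log2 change 0.22, SE 0.07, adjusted p = 0.0457 by edgeR), while Cl_3 was at 0.17 (SE 0.07, adjusted p = 0.0817 by edgeR) and Cl_1 at -0.21 (SE 0.07, adjusted p = 0.0644 by edgeR), neither past the threshold. The Cl_2 call was lost whichever of the 8 libraries was left out (log2 change 0.16 to 0.29, adjusted p = 0.0689 to 0.253 by edgeR), with TMM on nuclear rows (0.13, adjusted p = 0.172 by edgeR) and with no filter (0.22, adjusted p = 0.124 by edgeR). The difference among the lines was lost without replicate 2 of Cl_1 (adjusted p = 0.0998 by edgeR) or replicate 2 of Cl_3 (adjusted p = 0.0818 by edgeR).

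**Figure D2:**
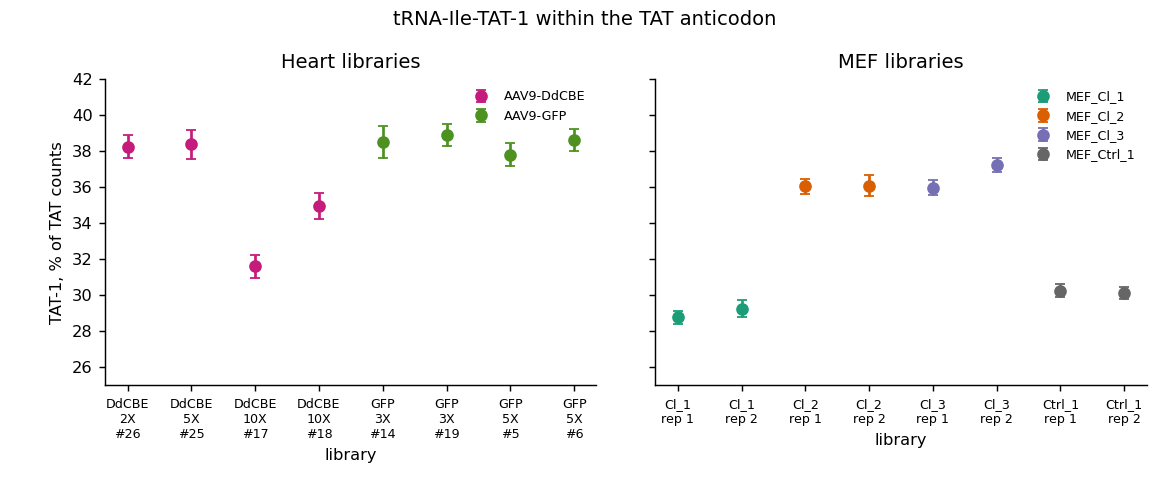
TAT-1 as a percentage of TAT counts in each heart and each MEF library, on an axis that starts above 0; bars are 95% Wilson intervals and cover counting error only. The 10X hearts of mice 17 and 18 lie at 31.6% and 34.9%, below the other 6 hearts; Cl_1 lies at 28.8% and 29.2%, Cl_2 and Cl_3 at 36.0% to 37.2%, and Ctrl_1 at 30.3% and 30.1%.

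AAT-3, the rarest isodecoder with usable counts, also differed among the Cl lines (edgeR F test, adjusted p = 0.0491). It had 303 and 235 counts in Cl_1, 314 and 190 in Cl_2 and 452 and 649 in Cl_3, against 373 and 485 counts in Ctrl_1. Scaled, these were 90.2 and 101 CPM in Cl_1, 103 and 125 in Cl_2 and 142 and 188 in Cl_3, against 122 and 115 CPM in Ctrl_1. Cl_3 lay above the other lines, and the log2 change against Ctrl_1 was 0.48 in Cl_3 (SE 0.20, adjusted p = 0.0749 by edgeR), -0.06 in Cl_2 (SE 0.20, adjusted p = 0.811 by edgeR) and -0.31 in Cl_1 (SE 0.20, adjusted p = 0.257 by edgeR). The difference among the lines passed by little: it missed the threshold when scaled on library totals (adjusted p = 0.0556 by edgeR) or on nuclear rows (adjusted p = 0.0535 by edgeR), and when any library other than replicate 1 of Cl_3 was left out (adjusted p = 0.0641 to 0.249 by edgeR).

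By single line, 0 or 1 of the 5 members was called. In Cl_1 0 of 5 members passed where 33.8% of all transcripts did (at an unadjusted p under 0.05, TAT-1; by DESeq2, 1 member). In Cl_2 1 of 5 passed, TAT-1, where 46.3% did. In Cl_3 1 of 5 passed, TAT-2 (log2 change -0.25, SE 0.07, adjusted p = 0.0221 by edgeR), where 50.7% did. That call was lost with library totals (-0.11, adjusted p = 0.213 by edgeR) and without replicate 1 of Cl_2 or either library of Cl_3 or Ctrl_1 (adjusted p = 0.0595 to 0.137 by edgeR). In Cl_1 and Cl_2, TAT-2 was at -0.13 (SE 0.07, adjusted p = 0.195 by edgeR) and -0.17 (SE 0.07, adjusted p = 0.0914 by edgeR). The 3 comparisons share the Ctrl_1 libraries.

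Summed per anticodon, neither isoleucine total passed in the MEFs, where 42.9% of the 70 anticodon totals did. The AAT total averaged 46561 ± 2829 CPM in the Cl lines (SD, n = 6) and 44347 ± 1192 in Ctrl_1 (SD, n = 2), with a log2 change of 0.20 (SE 0.08, adjusted p = 0.0749 by edgeR). It was called by DESeq2 (0.19, adjusted p = 0.00738) and with library totals (0.17, adjusted p = 0.0421 by edgeR). Over the 14 alternatives the change of the AAT total ran from 0.07 to 0.22, and it did not pass in most of them. AAT-1, the bulk of this total, was at 0.07 (SE 0.05, adjusted p = 0.333 by edgeR) in the transcript fit, which scales the counts differently. The TAT total averaged 16540 ± 856 CPM in the Cl lines (SD, n = 6) and 17703 ± 422 in Ctrl_1 (SD, n = 2). Its log2 change of 0.03 (SE 0.05, adjusted p = 0.609 by edgeR) has the opposite sign to the CPM values, which were scaled on the transcript table, and with those scaling factors it was -0.10 (adjusted p = 0.123 by edgeR). As a share of isoleucine counts, which no scaling touches, TAT was at 24.4% and 24.6% in Cl_1, 26.4% and 27.8% in Cl_2 and 26.6% and 27.6% in Cl_3, against 28.5% and 28.6% in Ctrl_1. All 6 Cl libraries lay below both Ctrl_1 libraries, by 2.29 points on average (exact permutation test over 28 splits, two-sided p = 0.0714; Benjamini-Hochberg adjusted p = 0.190 over 16 tests of shares). With the lines as units the exact p was 0.50, where 0.25 is the smallest that 4 splits allow.

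**Figure D3:**
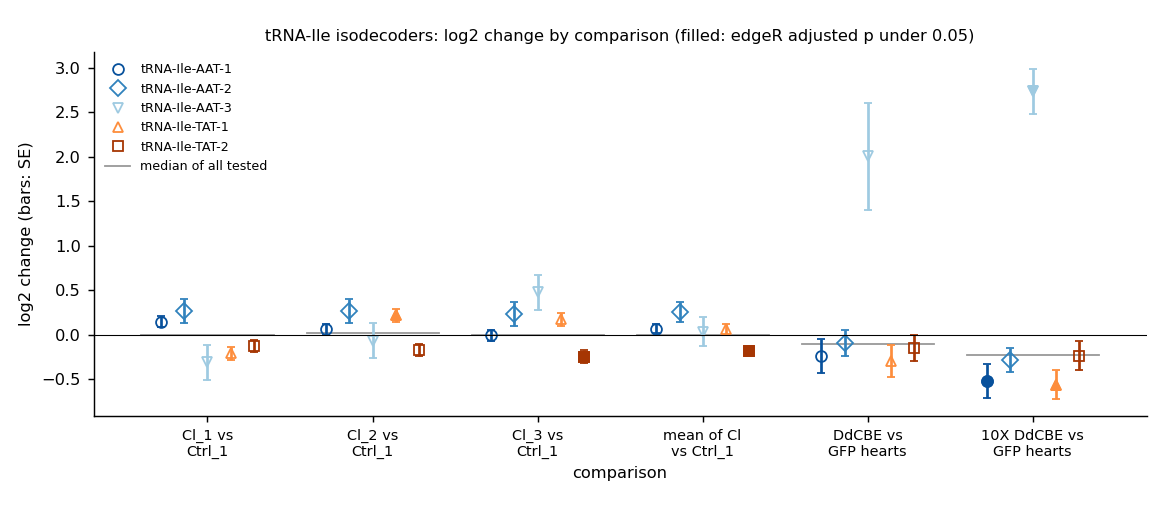
Log2 change of the 5 tested isodecoders in each comparison, with SE bars; filled symbols passed an edgeR adjusted p of 0.05 and grey lines mark the median of all transcripts tested. Changes in the MEFs lie between -0.31 and 0.48, and AAT-3 stands at 2.004 in AAV9-DdCBE against AAV9-GFP hearts and at 2.73 in the 10X AAV9-DdCBE against AAV9-GFP hearts.

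In the hearts, 0 of the 5 tested members passed between AAV9-DdCBE and AAV9-GFP, and 0% of the 180 transcripts tested did (edgeR; 35 had an unadjusted p under 0.05, and DESeq2 called 27). AAT-1 was at 27715, 29503, 17299 and 22782 CPM in the AAV9-DdCBE hearts (mice 26, 25, 17 and 18), against 29598, 28412, 27611 and 29103 CPM in the AAV9-GFP hearts (mice 14, 19, 5 and 6), a log2 difference of -0.24 (SE 0.19, adjusted p = 0.380 by edgeR). TAT-2 was at 5765, 4900, 4815 and 4664 CPM in the AAV9-DdCBE hearts, against 4502, 5638, 5994 and 6160 CPM in the AAV9-GFP hearts, a log2 difference of -0.15 (SE 0.14, adjusted p = 0.485 by edgeR). The groups overlapped for both. TAT-1 (-0.29, SE 0.18, adjusted p = 0.323 by edgeR) and AAT-2 (-0.09, SE 0.14, adjusted p = 0.683 by edgeR) did not pass either. The anticodon totals differed by -0.04 for AAT (SE 0.10, adjusted p = 0.955 by edgeR) and by 0.003 for TAT (SE 0.09, adjusted p = 0.975 by edgeR), in a table where 0% of anticodon totals passed. The TAT share of isoleucine counts was 23.3% ± 2.80 in AAV9-DdCBE and 22.7% ± 2.65 in AAV9-GFP hearts (SD, n = 4 each; two-sided exact permutation p = 0.83).

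AAT-3 had the largest log2 difference of the 5 members between the treatments. It had 103, 112, 930 and 461 counts in the AAV9-DdCBE hearts (mice 26, 25, 17 and 18), against 57, 103, 96 and 88 counts in the AAV9-GFP hearts (mice 14, 19, 5 and 6). Scaled, these were 43.4, 63.9, 324 and 197 CPM after AAV9-DdCBE, against 36.7, 41.4, 43.6 and 34.6 CPM after AAV9-GFP. The 10X mice 17 and 18 stood several-fold above all other hearts, while the 2X mouse 26 lay just below the highest AAV9-GFP heart and the 5X mouse 25 above it. Over all 4 AAV9-DdCBE hearts the log2 difference was 2.004 (SE 0.60, adjusted p = 0.0866 by edgeR). DESeq2 called it (2.17, adjusted p = 0.0132), and it passed in edgeR without mouse 25 (2.43, adjusted p = 0.0427) or mouse 26 (2.47, adjusted p = 0.0189). Without mouse 17 it was 1.37 (adjusted p = 0.354 by edgeR). Calls over all transcripts rose as well in the settings that called AAT-3. They went from 0 of 180 to 27 with DESeq2, 19 of 182 without mouse 25 and 31 of 181 without mouse 26.

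With the 10X hearts set against the 4 AAV9-GFP hearts, AAT-3 was 6.65-fold higher (log2 difference 2.73, SE 0.26, adjusted p = 4.33e-05 by edgeR). It also passed with DESeq2, with library totals, with TMM on nuclear rows and without any 1 of the AAV9-GFP hearts. Over all 11 alternatives the log2 differences were 2.33 to 3.06. The alternatives without mouse 25 or 26 removed no heart from this comparison. Without mouse 17 the log2 difference was 2.33, and without mouse 18 it was 3.06. Each of these fits keeps only 1 of the 10X hearts, so no spread between 10X hearts enters them. In this comparison 51.7% of the 180 transcripts passed, 23.9% as higher, the median log2 difference of all transcripts was -0.23 (0.05 when scaled on nuclear rows), and 16 transcripts had a greater log2 difference than AAT-3. No AAV9-GFP heart carried the 10X label, so the label and the treatment cannot be told apart. The 10X hearts also had the highest mitochondrial shares, whose part in the result was not tested. These were 59.9% in mouse 17 and 44.5% in mouse 18, against 43.3% in the highest AAV9-GFP heart, mouse 19. AAT-1 (-0.52, SE 0.19, adjusted p = 0.0461 by edgeR) and TAT-1 (-0.56, SE 0.17, adjusted p = 0.0248 by edgeR) fell in the 10X hearts, where the median was itself below 0, and neither passed under DESeq2 (adjusted p = 0.0859 and 0.0796), library totals (adjusted p = 0.176 and 0.160 by edgeR) or scaling on nuclear rows (adjusted p = 0.235 and 0.174 by edgeR); each passed in 2 of the 11 alternatives. AAT-2 (-0.28, SE 0.13, adjusted p = 0.107 by edgeR) and TAT-2 (-0.23, SE 0.16, adjusted p = 0.244 by edgeR) lay near that median. The anticodon totals of AAT (-0.13, SE 0.11, adjusted p = 0.541 by edgeR) and TAT (0.02, SE 0.13, adjusted p = 0.924 by edgeR) did not pass, where 0% of the 70 totals did (15 at an unadjusted p under 0.05; 13 by DESeq2). The fit of totals scales the same counts differently, so the AAT total and AAT-1, its bulk, differ in size. Over the 11 alternatives the AAT total ran from -0.37 to -0.05.

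The share of AAT-3 within the AAT anticodon is free of the scaling between libraries. AAT-3 made up 0.145%, 0.201%, 1.68% and 0.795% of AAT counts in the AAV9-DdCBE hearts (mice 26, 25, 17 and 18), against 0.116%, 0.136%, 0.146% and 0.111% in the AAV9-GFP hearts (mice 14, 19, 5 and 6). The 95% Wilson intervals were 1.58% to 1.79% for mouse 17 and 0.726% to 0.871% for mouse 18, and the highest bound of an AAV9-GFP heart was 0.179%; they cover counting error only. The mean was 0.705% ± 0.713 in AAV9-DdCBE hearts and 0.127% ± 0.0167 in AAV9-GFP hearts (SD, n = 4 each; two-sided exact permutation p = 0.0571, smallest possible 0.0286; Benjamini-Hochberg adjusted p = 0.183 over 16 tests of shares). TAT-1 stood low in the same 2 hearts: it made up 38.2%, 38.4%, 31.6% and 34.9% of TAT counts in the AAV9-DdCBE hearts (mice 26, 25, 17 and 18), against 38.5%, 38.9%, 37.8% and 38.6% in the AAV9-GFP hearts (mice 14, 19, 5 and 6). This share did not pass a test of the 2 treatments (exact permutation test, two-sided p = 0.143).

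**Figure D4:**
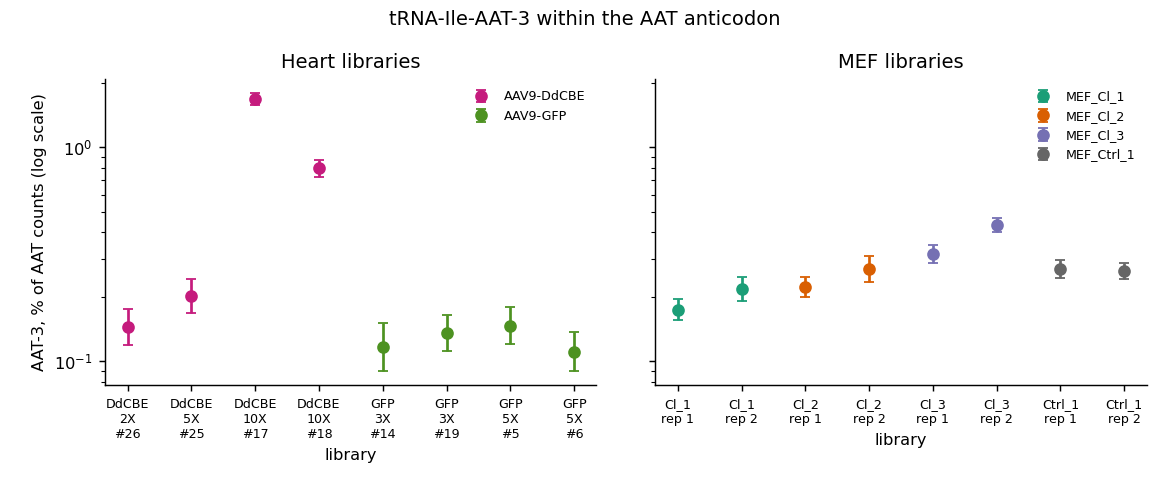
AAT-3 as a percentage of AAT counts (log scale) in each heart and each MEF library; bars are 95% Wilson intervals and cover counting error only. The 10X hearts of mice 17 and 18 lie at 1.68% and 0.795%, the other 6 hearts between 0.111% and 0.201%, and the MEF libraries between 0.174% and 0.432%.

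The isoleucine tRNAs were set beside 2 lists of other anticodons that share a feature with them. Like AAT, the anticodons Ala-AGC, Arg-ACG, Leu-AAG, Pro-AGG, Ser-AGA, Thr-AGT and Val-AAC begin with an adenosine that is edited to inosine. For the Cl mean against Ctrl_1, 1 of these 7 totals rose, Val-AAC (0.27, SE 0.07, adjusted p = 0.0123 by edgeR), and 1 fell, Pro-AGG (-0.16, SE 0.04, adjusted p = 0.0114 by edgeR), with a median of 0.06 against 0.02 for all 70 totals. Both kept their sign in all 14 alternatives, and Val-AAC passed in 8 and Pro-AGG in 12. Of the 27 tested isodecoders of the list, 4 were called higher and 8 lower for the Cl mean, where 22.9% of all 201 transcripts were called higher and 25.4% lower. The median log2 change was 0.08 for the list and -0.0008 for all. In the 10X hearts 10 of the 27 were called higher and 8 lower, where 23.9% of all 180 transcripts were called higher and 27.8% lower. The median there was -0.19 for the list and -0.23 for all. Like TAT, Leu-CAA and Tyr-GTA tRNAs, and some Arg-TCT tRNAs, come from genes with an intron. Of these 3 totals, Leu-CAA rose for the Cl mean (0.34, SE 0.08, adjusted p = 0.0123 by edgeR; past the threshold in 11 of 14 alternatives), and Arg-TCT (0.29, SE 0.16, adjusted p = 0.163 by edgeR) and Tyr-GTA (0.0009, SE 0.11, adjusted p = 0.994 by edgeR) did not pass. Of the 12 tested isodecoders of the intron list, 4 were called higher and 0 lower for the Cl mean (median 0.14), and 2 higher and 4 lower in the 10X hearts (median -0.29), beside the same shares and medians of all transcripts. No test sets either list apart from the other transcripts. Between all AAV9-DdCBE and AAV9-GFP hearts, 0 totals and 0 isodecoders of either list passed.

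The nuclear rows most like the leading isodecoders were found by the Pearson correlation of log2 CPM over the 8 libraries of a table, given as a description. In the MEFs, AAT-1 was closest to tRNA-Ser-GGA-1 (r = 0.96), tRNA-Asn-GTT-3 (0.93) and tRNA-Leu-CAA-3 (0.87), and TAT-2 to tRNA-Arg-CCT-4 (0.95), tRNA-Thr-CGT-1 (0.88) and tRNA-Ala-AGC-6 (0.88), among 174 rows. In the hearts, AAT-1 was closest to tRNA-Thr-AGT-2, tRNA-Ser-GCT-2 and a merged tRNA-Thr-TGT row (0.99 each), and TAT-2 to tRNA-Glu-TTC-1 (0.99), tRNA-Glu-CTC-1 (0.98) and tRNA-Asp-GTC-2 (0.97), among 157 rows. The libraries of a table share their scaling, and the 10X hearts stood apart from the other hearts in many rows.

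The mitochondrial tRNA for the same amino acid, mt-tRNA-Ile, fell for the Cl mean (log2 change -0.72, SE 0.14, adjusted p = 0.00453 by edgeR), with 1441 ± 205 CPM in the Cl lines (SD, n = 6) and 2375 ± 207 in Ctrl_1 (SD, n = 2). Of all 201 transcripts, 25.4% were called lower. The fall was not particular to this tRNA: mitochondrial tRNAs together took 2.14% to 3.01% of counts in the Cl libraries, against 3.74% and 3.41% in Ctrl_1. In the hearts it was at 24447, 29418, 55802 and 30636 CPM after AAV9-DdCBE (mice 26, 25, 17 and 18), against 28660, 24767, 20351 and 20493 CPM after AAV9-GFP (mice 14, 19, 5 and 6), a log2 difference of 0.57 (SE 0.26, adjusted p = 0.268 by edgeR), and 0.87 in the 10X hearts (SE 0.27, adjusted p = 0.0256 by edgeR). In the fit of anticodon totals, which scales the same counts differently, the 10X difference was 1.27 and was not called (SE 0.33, adjusted p = 0.177 by edgeR). In that fit the change for the Cl mean stayed past the threshold (-0.59, SE 0.16, adjusted p = 0.0146 by edgeR). The highest value was that of mouse 17, the heart with the highest mitochondrial share. The full treatment groups overlapped, while both 10X hearts lay above every AAV9-GFP heart. In the 10X fit of transcripts, 23.9% of all 180 were called higher.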

How the data were processed

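The authors deposited raw read counts per tRNA transcript, in a MEF table and a heart table; the values are whole numbers with no normalization. Per the labels' protocols, RNA from an acidic TRIZOL extraction went through oxidation and beta-elimination before mim-tRNAseq library preparation. The submitters' processing notes list cutadapt 3.5 and the build mm39. How reads were aligned and counted, and how reads shared by near-identical isodecoders were handled, is not given in the sources used here, so counts could be split between isodecoders of 1 anticodon, and anticodon totals are given too.

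Groups came from the sample titles. The test was that of edgeR 4.0.16 under R 4.3.3 (TMM, filterByExpr with a minimum count of 10 and a minimum total of 15, glmQLFit, glmQLFTest), Benjamini-Hochberg adjustment over all rows of a fit and a threshold of 0.05; 201 transcripts were tested in the MEFs and 180 in the hearts, in 1 fit per table. Anticodon totals left out tRX rows. The SE is the log2 change divided by the square root of F. The 10X fit used the X label as factor for the AAV9-DdCBE hearts only, and all AAV9-GFP hearts formed 1 group. DESeq2 1.42.0, library totals, TMM on nuclear rows, no filter, a replicate block and leaving out each library were alternatives. The pipeline was tested on simulated data. No replicate repeated another: over the 16 within-group pairs, chi-square per degree of freedom was 93.9 to 1781.

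Shares were compared by exact permutation tests. The members, lists and tests were chosen with earlier results of these data known, and the share tests of single isodecoders and the alternatives for the 10X hearts were added in this work after values were seen. Same-numbered MEF libraries of different lines had correlations of their deviations from the line means of 0.0698 to 0.248, not all over 0.1, and the labels give no shared day, so the numbers were not taken to pair the lines. Named rows were all members, the anticodon totals of the 2 lists, mt-tRNA-Ile and the 3 nearest rows of each leading isodecoder; tRNA-Leu-CAA-1 was named after its value was seen.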

Additional observations from a re-analysis of the deposited data

Results flagged for a closer look

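Among the results above, 2 of the 5 tested isodecoders had effects against Ctrl_1 that differed between the Cl lines. These calls came from a test of the difference itself, which 24.4% of the 201 transcripts passed. TAT-1 gave an edgeR F test adjusted p of 0.0107, with log2 changes of -0.21 in Cl_1, 0.22 in Cl_2 and 0.17 in Cl_3. AAT-3 gave an edgeR F test adjusted p of 0.0491, with log2 changes of -0.31 in Cl_1, -0.06 in Cl_2 and 0.48 in Cl_3. The AAT-3 call passed by little and was lost with library totals or nuclear TMM. As shares of their anticodon, the spread over all 4 lines had exact p-values of 0.0286 for TAT-1 and 0.0190 for AAT-3 (the summed squared gaps between the 2 passages of each line, set against all 105 ways to pair the 8 libraries, one-sided; smallest possible 0.00952), and neither passed over the 16 share tests (Benjamini-Hochberg adjusted p = 0.183). No heart stood far enough from the others of its treatment to be singled out, among 28 sets of 4 values checked with Dixon's test.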

How the results depend on the processing

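Calls over all transcripts moved with the setting. For the Cl mean, 97 of 201 were called, 96 with library totals and 101 of 355 with no filter. In Cl_1, Cl_2 and Cl_3 they were 68, 93 and 102, with DESeq2 72, 97 and 106, and with library totals 68, 79 and 100. In the hearts 0 of 180 were called, and 27 with DESeq2. In the 10X hearts 93 of 180 were called, and 57 to 75 with DESeq2, library totals or nuclear TMM. Without 1 AAV9-GFP heart 45 to 121 were called. Beside these, counts of called members among the 5 tested moved as follows. For the mean of the Cl lines (1 called) they were 2 with library totals, 0 with no filter, 0 with each line's libraries summed, and 0 to 1 leaving out 1 library. For Cl_1 (0 called) they were 1 with DESeq2, library totals, nuclear TMM or no filter, and 0 to 1 leaving out 1 library. For Cl_2 (1 called) they were 2 with DESeq2 or library totals, 0 with no filter and 0 to 1 leaving out 1 library. For Cl_3 (1 called) they were 2 with DESeq2 or no filter, 3 with library totals and 0 to 1 leaving out 1 library. Among the Cl lines (2 called) they were 1 with library totals or nuclear TMM and 0 to 2 leaving out 1 library. In the hearts (0 called) they were 1 with DESeq2, 3 with the 10X hearts alone and 0 to 1 leaving out 1 heart. In the 10X hearts (3 called) they were 1 with DESeq2, library totals or nuclear TMM and 1 to 5 leaving out 1 heart.

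With the replicate block, 0 members were called in Cl_2 (TAT-1, adjusted p = 0.0540 by edgeR), 105 of 201 transcripts passed for the Cl mean against 97 without it, and no other count of members moved; the correlations between same-numbered libraries were above 0 in all 6 pairs of lines, a hint from the data and not from the design. The AAT total in the MEFs passed with DESeq2 (0.191), with library totals (0.171) and without either Cl_1 library (0.137 to 0.216 over all left-out libraries). The following log2 changes took the other sign, and 1 of them passed the threshold. With nuclear TMM, the Cl mean was -0.00109 for AAT-1, -0.0336 for AAT-3, -0.00848 for TAT-1 and -0.0227 for the TAT total, Cl_2 was -0.0300 for AAT-1, the AAV9-DdCBE difference was 0.0351 for AAT-2, and the 10X difference was 0.0460 for TAT-2. With library totals, Cl_2 was 0.0413 for AAT-3, Cl_3 was 0.132 for AAT-1 (adjusted p = 0.0469 by edgeR), and the TAT total was -0.115 in the hearts and -0.250 in the 10X hearts. With DESeq2, Cl_3 was 0.00395 for AAT-1 and the hearts 0.00873 for AAT-2. With no filter these were 0.00255 and 0.0172. With the scaling factors of the transcript table, the TAT total was -0.0988 in the MEFs and -0.202 in the hearts. Leaving out 1 library gave -0.0315 to 0.0945 for AAT-3 and -0.0267 to 0.0449 for the TAT total in the Cl mean, -0.212 to 0.0948 for AAT-3 in Cl_2, -0.0386 to 0.0183 for AAT-1 in Cl_3, -0.106 to 0.0175 for AAT-2, -0.0916 to 0.0380 for the AAT total and -0.0673 to 0.0386 for the TAT total in the hearts, and -0.0688 to 0.1198 for the TAT total in the 10X hearts. Leaving out 1 library, the TAT share differed by -2.60 to -1.91 points in the MEFs and by -0.740 to 1.63 points in the hearts. The cause of these moves was not tested.

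The number of libraries limits these results, with 4 lines of 2 passages and 4 hearts per treatment. AAT-3 rests on 57 to 930 counts per library. TAT-3, at 0 to 6 counts, entered only the fits with no filter, where it was not called. AAT-4 and AAT-5, at 0 counts, were not tested.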

Other observations

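Rows outside the members held few isoleucine counts: a nuclear tRNA-Ile row with a GAT anticodon had 0 or 1 count in each heart and 1 or 2 in each MEF library, and isoleucine rows of the tRX class had 0 to 2 counts in each of the 16 libraries.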
